A study of Mus musculus with 4 samples.

Results

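Hyls1, Plk4, Cep152, Cep192, Sass6, Stil, Cenpj and Cep135 encode proteins of the centriole, and all 8 were found among the 20197 genes measured in 4T1 cells sorted for mitochondrial membrane potential (MMP). The 7 duplication genes were taken by name. Hyls1 was picked for its more than 2-fold difference between high and low MMP cells, so its difference is given as a description, and no member was tested in that contrast. 4T1 is a mouse mammary tumor line, labelled here as wild type, grown in medium with 10% serum and stained with 20 nM of MitoSpy Red, a dye that gathers in mitochondria according to their MMP. The brightest 5% and the dimmest 5% of cells were collected as high MMP and low MMP cells, with 2 samples in each group and 100000 cells per sample. Cells of intermediate staining were not compared, and both groups came from the same stained line. RNA (200 ng per sample) was made into poly(A) libraries and sequenced with paired reads of 75 bases.

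The centriole is a cylinder of microtubules that organises the centrosome and, in cells with a cilium, serves as its base. It is copied once per cell cycle, when the kinase Plk4 is brought to the wall of the parent centriole by the scaffolds Cep192 and Cep152 and, together with Stil, starts a cartwheel of Sass6. Cep135 links cartwheel and wall, and Cenpj (also called CPAP) lengthens the microtubules of the new centriole. Hyls1 is a conserved centriole protein that is dispensable for copying in several animals and is needed for centrioles to form cilia, and the gene is named after hydrolethalus syndrome, a disorder of cilia.

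The libraries held between 22591970 and 26395015 reads assigned to genes, scaled by the authors to 20000000 each, and all levels below are these normalized reads. The 8 genes had between 552 and 3459 reads in each library. Of the epithelial markers, 5 of 6 were in the table, with summed levels of 36188 to 48361, while Krt5 was not in it. Immune markers summed to between 60.6 and 149 and endothelial markers to between 1.74 and 6.20, with Ptprc at 1.77 or less in every library. Fibroblast markers summed to between 328 and 594, nearly all from Pdgfra, which was at 319 and 363 in high MMP and at 536 and 589 in low MMP cells. The part of Pdgfra-expressing cells in the results below was not tested.

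Hyls1 (ENSMUSG00000050555, GRCm38 chr9:35560820-35570398, minus strand) was at 1005 and 1243 normalized reads in the high MMP samples 1 and 2, and at 481 and 540 in the low MMP samples 1 and 2. Both high MMP samples lay above both low MMP samples. The group means were 1124 ± 168 and 511 ± 41.6 (SD, n = 2 each), a ratio of 2.20. On the scale of log2(value + 1), on which all differences below are given as high minus low MMP, the difference was 1.13. It was 1.06 between the samples numbered 1 and 1.20 between those numbered 2, while pairing high MMP 1 with low MMP 2 gave 0.89 and high MMP 2 with low MMP 1 gave 1.37. Leaving out each sample in turn gave 0.98 to 1.28, and the value just under 2-fold was that without high MMP sample 2. There were 9999 genes whose mean reached 100 normalized reads. In both same-numbered pairs, 10 of them (0.1%) were 2-fold or more higher in high MMP cells and 4 were 2-fold or more lower. By the difference of group means, Hyls1 was number 10 from the top of those 9999 genes. It was the member just inside the 2-fold limit, and the nearest member outside it was Stil, with 0.05 and 0.44 in the same-numbered pairs.

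**Figure D1:**
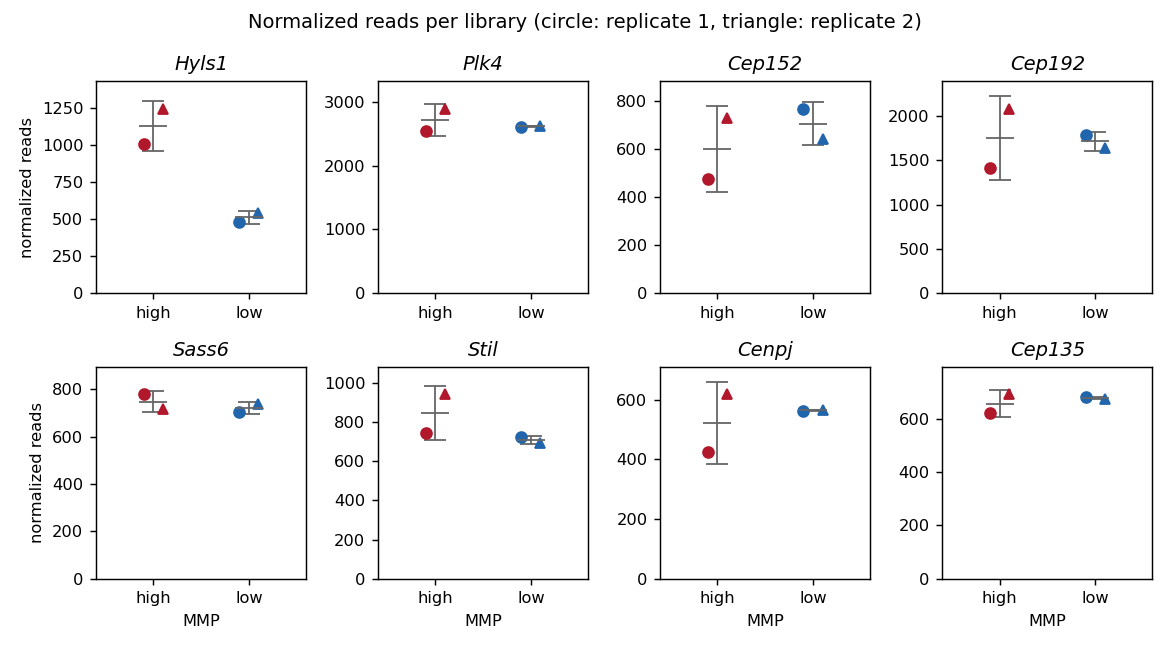
Normalized reads (vertical axes, each from 0) of the 8 genes in high and low MMP cells. Circles are samples numbered 1, triangles samples numbered 2, and the bars give the mean ± SD of 2 samples; Hyls1 was at 1005 and 1243 in high and at 481 and 540 in low MMP cells, whereas in 6 of the 7 other genes the groups overlapped.

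The level of Hyls1 was also set against the other 7 genes within each library, which removes any scaling of whole libraries. The ratio of Hyls1 to their geometric mean was 1.22 and 1.20 in high MMP samples 1 and 2, and 0.507 and 0.590 in low MMP samples 1 and 2. These ratios use the same Hyls1 values as its choice, so their difference between high and low MMP is a description only. The high MMP samples, whose Hyls1 levels differed by 0.31 on the log2 scale, had ratios close to each other. The reason for this closeness was not tested. The low MMP samples moved farther apart, with log2 ratios of -0.98 and -0.76 where their Hyls1 levels differed by 0.17.

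The genes with the profile most like that of Hyls1 over the 4 samples were Fam83d, Cdc25b, Prc1, Ccnf and Arl6ip1, ranked by Euclidean distance between log2 levels centred on each gene's mean. This ranking was made among 9991 genes that are no members and whose mean reached 100, and since it uses the same values as the choice of Hyls1, their differences are a description only. Fam83d, a spindle protein, was nearest at a distance of 0.074, with 940 and 1089 normalized reads in high and 432 and 499 in low MMP cells. Cdc25b, a phosphatase that activates cyclin-dependent kinases before mitosis, was at a distance of 0.112, with 1986 and 2441 against 1037 and 1130. Prc1, which bundles microtubules of the central spindle in anaphase, was at a distance of 0.115, with 6256 and 7054 against 2799 and 3039. All of these showed no overlap between the groups and were lowest in low MMP sample 1, as Hyls1 was. Ccnf, or cyclin F, was at a distance of 0.175, with 1697 and 2081 against 895 and 1042. Arl6ip1, a membrane-shaping protein of the endoplasmic reticulum, was at a distance of 0.194, with 6840 and 7452 against 3403 and 3819. The log2 differences of the 5 genes ranged from 0.96 in Ccnf to 1.19 in Prc1, around the 1.13 of Hyls1. The distances of the duplication genes are also a description only. Hyls1 was picked for a large difference, so a gene with a small one lies far from it by this measure. Of the duplication genes, Stil was the closest at a distance of 0.902, with 415 genes that are no members nearer to Hyls1. Plk4 followed at 1.09 with 2006 such genes, and Cep152 was the farthest at 1.44 with 8991.

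**Figure D2:**
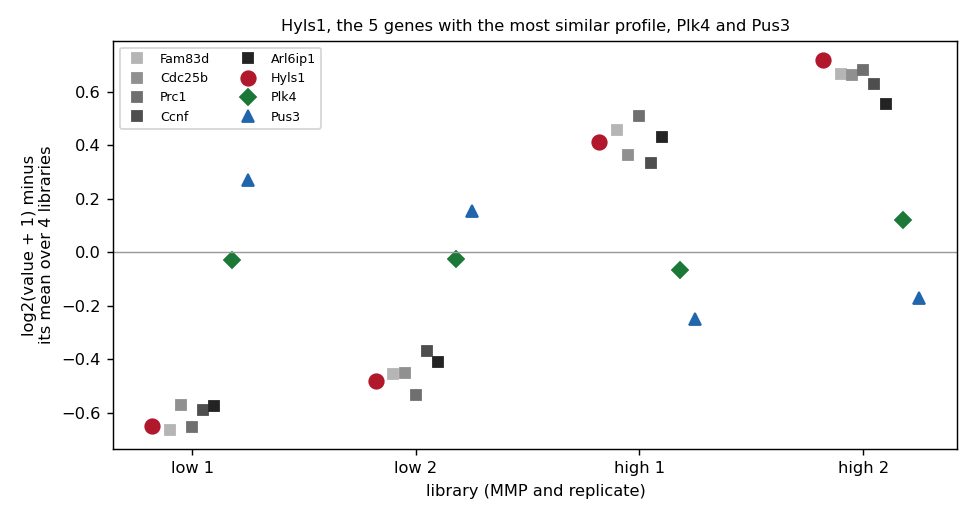
Level of each gene as log2(value + 1) minus its mean over the 4 libraries (vertical axis), by library (horizontal axis). Hyls1 (red circles, difference of group means 1.13) and its 5 nearest genes (grey squares, 0.96 to 1.19) were low in both low MMP and high in both high MMP libraries, Plk4 (green diamonds) differed by 0.05, and Pus3 (blue triangles), which overlaps Hyls1 on the other strand, differed by -0.42.

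Many genes that peak in G2 and mitosis carry a hexamer known as the cell cycle genes homology region near their start, read by the MuvB complexes, often beside CCAAT boxes bound by NF-Y. The RefSeq promoter windows (GRCm38.p6, 250 bases before to 50 after the start) of the members and of the 5 genes nearest to Hyls1 were therefore searched on both strands for TTTGAA or TTCGAA, for its variants TTTAAA or CTTGAA, and for CCAAT. The variants were added to the search after the values or sequences were seen. No window was used for Cep192. The stretches of 30 bases around the match nearest to the start are shown for the genes with one, since they let Hyls1 be read beside the genes that share its profile and the members that do not. Each is written 5′ to 3′ on the strand of its gene, with the hexamers in capitals, and those in the windows of Fam83d and Arl6ip1 lie on the other strand.
Hyls1, chr9:35570107-35570136, minus strand: tcgggaTTTAAACTTGAAcagcggaccgtt
Fam83d, chr2:158768037-158768066, plus strand: gggctggtttgaTTCAAAgatgcctataaa
Cdc25b, chr2:131186943-131186972, plus strand: ccgctgttatttTTCGAAtatataaggagg
Prc1, chr7:80294434-80294463, plus strand: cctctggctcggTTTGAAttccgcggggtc
Ccnf, chr17:24251406-24251435, minus strand: gctcccggcgcgTTTGAAaacggggcgggg
Arl6ip1, chr7:118129696-118129725, minus strand: tttgacctggatTTCAAGtcatgcgctagc
Plk4, chr3:40799804-40799833, plus strand: cctacacacttaTTTAAAagactttctgcg
Cep152, chr2:125625247-125625276, minus strand: actggcgccctcTTCGAAcagccgcgctct
Sass6, chr3:116594787-116594816, plus strand: acgctgggtcctTTTGAAagcctggctcag
Stil, chr4:114999958-114999987, plus strand: cgccctcggttcTTTAAAgaaccttgggat

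The window of Hyls1 held 2 variant hexamers side by side, the nearer of them 55 bases upstream of the RefSeq start, and a CCAAT box 151 bases upstream. This RefSeq start is not the annotated start at 35570398. The window, chr9:35570020-35570319, lies within the annotated gene. It held neither TTTGAA nor TTCGAA, which 19.2% of all 32851 windows did. Of the 5 genes nearest to Hyls1, 4 held TTTGAA or TTCGAA, Arl6ip1 held the variant CTTGAA, and all 5 held CCAAT. Of the 7 members with a window, 2 held TTTGAA or TTCGAA (Cep152 and Sass6, 151 and 159 bases upstream), 5 held any of the 4 hexamers and 4 held CCAAT. Among all windows, 37.3% held any of the 4 hexamers and 37.4% held CCAAT. Cenpj and Cep135 showed no hexamer in these windows. The window of Cenpj, chr14:56571797-56572096, lies inside its annotated gene, whose annotated start is at 56575425. The sequence at that annotated start was not searched, so Cenpj is counted by this window only. Because TTTAAA and CTTGAA were added after the values or sequences were seen, their matches, those of Hyls1 among them, are a description only. The matches are letters in a window, and binding was not measured here.

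Hyls1 shares its locus with Pus3, which encodes a tRNA pseudouridine synthase on the other strand and whose annotated gene overlaps that of Hyls1 by 6582 bases. Pus3 (ENSMUSG00000032103) was at 833 and 878 normalized reads in high and at 1193 and 1101 in low MMP cells. It was lower in both high MMP samples, with a log2 difference of -0.42 (SE 0.09; limma, adjusted p = 0.472 over all genes). The coding transcript of Hyls1, of 1973 bases, shares 0 exon bases with Pus3, whereas a transcript with a retained intron, of 4269 bases, shares 2618. The library kit keeps strand, but whether strand was used in counting is not given in the sources used here, so reads of the retained intron and of Pus3 may not be separable. Pate2 starts 114 bases from the annotated start of Hyls1 in the opposite direction. It was near 0 by comparison, at 28.0 and 36.0 in high and at 36.6 and 38.1 in low MMP cells (log2 difference -0.23, SE 0.24, limma adjusted p = 0.855). Neither neighbour was higher in high MMP cells, the direction shown by Hyls1.

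Plk4 (ENSMUSG00000025758, chr3:40800019-40816883), the kinase that starts duplication, was at 2545 and 2895 normalized reads in high and at 2614 and 2618 in low MMP cells. The groups overlapped, with means of 2720 ± 247 and 2616 ± 2.96 (SD, n = 2) and a log2 difference of 0.05. It was 0.04 lower in high MMP in the pair numbered 1 and 0.14 higher in the pair numbered 2.

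The scaffolds that recruit Plk4 gave the widest spread. Cep152 (ENSMUSG00000068394, chr2:125563088-125625113) was at 475 and 728 in high and at 768 and 643 in low MMP cells. High MMP sample 1 was the lowest of the 4, and the log2 difference of -0.26 was smaller than the replicate SD of 0.33. Cep192 (ENSMUSG00000024542, chr18:67800107-67885170) was at 1415 and 2082 in high and at 1785 and 1640 in low MMP cells. The high MMP samples were the lowest and the highest of the 4, on either side of both low MMP samples, and the log2 difference was 0.004 with differences of -0.34 and 0.34 in the same-numbered pairs.

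Of the cartwheel genes, Sass6 (ENSMUSG00000027959, chr3:116594982-116631004) had the narrowest spread of the 7, with 778 and 715 in high and 702 and 739 in low MMP cells and a log2 difference of 0.05. Trmt13, a tRNA methyltransferase gene on the other strand that shares 389 exon bases with Sass6, was at 281 and 353 in high and at 393 and 382 in low MMP cells (log2 difference -0.30, SE 0.14; limma, adjusted p = 0.628). Stil (ENSMUSG00000028718, chr4:115000159-115043196) was at 746 and 941 in high and at 722 and 695 in low MMP cells, with means of 844 ± 138 and 708 ± 19.0 (SD, n = 2). Together with Hyls1 it was the member whose groups did not overlap, with a log2 difference of 0.24 against a replicate SD of 0.17. High MMP sample 1 was above the nearest low MMP sample by 0.05 on the log2 scale, and high MMP sample 2 by 0.38. Cep135 (ENSMUSG00000036403, chr5:76588698-76646466), which joins cartwheel and wall, was at 621 and 691 in high and at 681 and 675 in low MMP cells, a log2 difference of -0.05 with overlapping groups.

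Cenpj (ENSMUSG00000064128, chr14:56526761-56575425), of microtubule elongation, was at 424 and 618 in high and at 564 and 565 in low MMP cells. As in Cep192, the high MMP samples lay on either side of both low MMP samples, which were nearly equal. The log2 difference was -0.14, with -0.41 in the pair numbered 1 and 0.13 in the pair numbered 2. Parp4 starts 194 bases from the annotated start of Cenpj in the opposite direction. It was at 695 and 799 in high and at 754 and 665 in low MMP cells (log2 difference 0.07, SE 0.12, limma adjusted p = 0.926).

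Over the 7 duplication genes, 4 were higher and 3 lower in high MMP cells, between -0.26 in Cep152 and 0.24 in Stil, with a median log2 difference of 0.004 beside -0.04 over all genes. In 6 of the 7 the size of the difference was under the replicate SD. In 6 of the 7 the same-numbered pairs also went in opposite directions, with Stil the exception. Leaving out 1 sample changed the sign of the difference in the same 6 genes: Cep152, Sass6, Cenpj and Cep135 without high MMP sample 1, Plk4 and Cep192 without high MMP sample 2, and Cep192 also without low MMP sample 2. The pair numbered 1 had 5 genes lower in high MMP and a median of -0.13, and the pair numbered 2 had 6 genes higher and a median of 0.14. Of all 8 members, 2 had groups that did not overlap with high above low, and 0 had groups with high below low. Among the 9999 genes whose mean reached 100, 14.9% had high above low without overlap and 22.7% had high below low. Because Hyls1 was picked from this contrast, nothing is read from its place in that count.

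**Figure D3:**
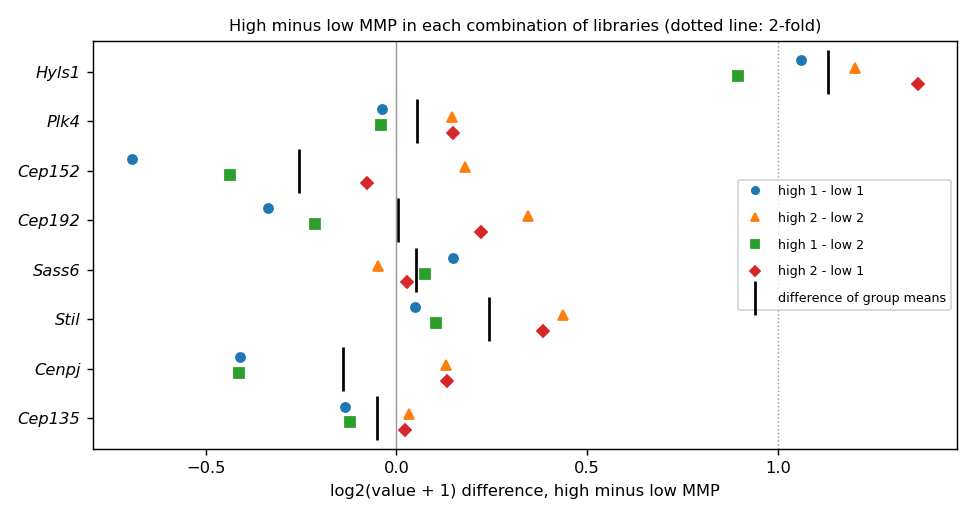
Log2 difference, high minus low MMP (horizontal axis), for each of the 4 ways to set a high against a low MMP library, with the difference of group means as a vertical bar. Hyls1 was between 0.89 and 1.37 in all 4, Stil between 0.05 and 0.44, and the other genes fell on both sides of 0.

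Within the groups, the high MMP samples were the farther apart. Of the 7 duplication genes, 6 were lower in high MMP sample 1 than in sample 2, by 0.16 in Cep135, 0.19 in Plk4, 0.33 in Stil, 0.54 in Cenpj, 0.56 in Cep192 and 0.61 in Cep152 on the log2 scale, and Sass6 was 0.12 higher. In the low MMP samples, differences between sample 1 and sample 2 ranged from -0.07 in Sass6 to 0.26 in Cep152. Hyls1 was 0.31 lower in high MMP sample 1 than in sample 2, and 0.17 lower in low MMP sample 1 than in sample 2. Over those 9999 genes, the SD of the difference between replicates was 0.308 in high and 0.192 in low MMP cells.

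This difference between the high MMP samples moved with transcript length. Among protein-coding genes whose mean reached 100, its median was 0.17 for the 2221 genes whose longest coding transcript is under 2 kb, -0.01 for the 3917 of 2 to 4 kb, -0.11 for the 2121 of 4 to 6 kb, -0.20 for the 871 of 6 to 8 kb and -0.28 for the 556 above 8 kb. In the low MMP samples the medians ran the other way, from -0.05 to 0.12. The 3 members that differed most between the high MMP samples, Cep152, Cep192 and Cenpj, have transcripts of 5768, 8093 and 4756 bases, and Sass6 has 2458. Hyls1, at 1973 bases, was lower in high MMP sample 1 although genes of its length were mostly higher there. The part of transcript length in the members' values was not tested.

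**Figure D4:**
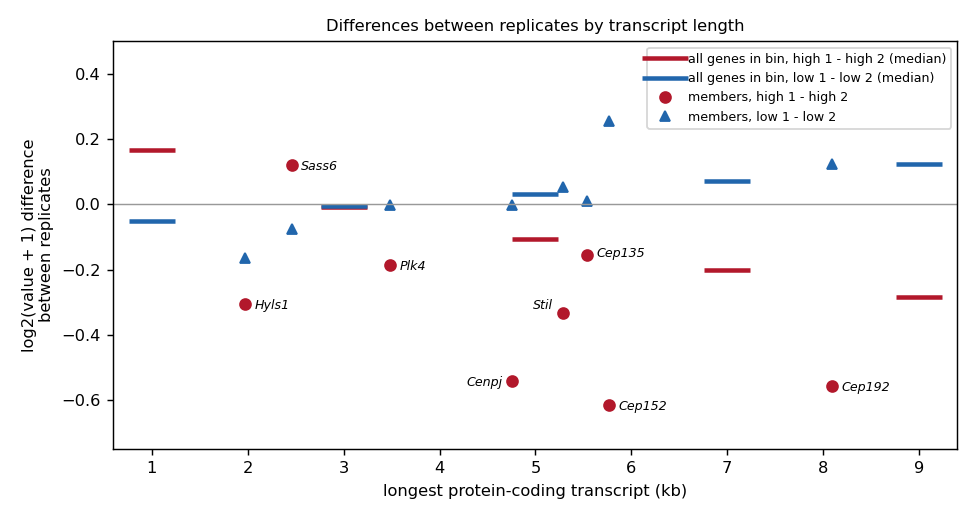
Log2 difference between the 2 samples of a group (vertical axis) against the length of the longest protein-coding transcript in kb (horizontal axis), with circles for the members in high MMP, triangles for the members in low MMP and bars for the median of all genes in a length bin. The high MMP medians went from 0.17 in the shortest bin to -0.28 in the longest, and every member but Sass6 lay below the high MMP median of its bin.

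Levels of different genes were compared per kilobase of the longest coding transcript, as means over the 4 samples. Plk4 was the highest at 767 normalized reads per kb, with 732 to 832 in single samples and no overlap with the next gene. Hyls1 followed at 414, with 509 and 630 per kb in high and 244 and 274 in low MMP cells. It thus stood above Sass6 (298, from 286 to 317) in both high MMP samples and below it in both low MMP samples. Cep192 was at 214 (175 to 257) and overlapped with Stil at 147 (131 to 178). Cep135 at 120, Cenpj at 114 and Cep152 at 113 overlapped in their ranges and have no order. With all annotated exons as the length, which includes retained introns, the place of Hyls1 depended on the group: it was number 2 at 188 per kb in high MMP and number 8 at 85.5 per kb in low MMP cells.

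Beyond the members, 83 of 84 listed centriole genes were in the table, Deup1 being the exception, and 81 of them had a mean of 10 or more. At an adjusted p under 0.05 (limma, over all genes), 0 of them and 0 of all 20197 genes (0%) passed, the smallest adjusted p being 0.472. At an unadjusted p under 0.05 in limma, 7 of the 83 were higher and 2 lower. Among all genes, 3.95% were higher and 6.01% lower. The share of the 83 was thus above that of all genes for higher and below it for lower, and 10.8% beside 9.96% in sum. Among genes with a mean of 10 or more, limma called 7 higher and 5 lower, beside 381 and 678 of 12902 genes. DESeq2 called 8 higher and 5 lower, beside 370 and 290 of 20197 genes. For edgeR without a block it was 8 and 2, beside 651 and 772. The counts of these genes and of all genes moved when a sample was left out. The shares were not compared in those fits, which leave 1 sample in a group. The median log2 difference was -0.03, equal to that of all genes whose mean reached 10, with -0.11 in the pair numbered 1 and 0.07 in the pair numbered 2, beside -0.13 and 0.14 in the duplication genes. The p-values measure the spread between these samples, which the study describes as independent experiments, while the labels give no separate cultures or sort days.

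Genes of the assembly site and of turnover of the duplication proteins (13 in the table) gave 0 calls and a median of -0.04. Aspm, a spindle-pole protein, was the highest at 2281 and 3691 in high and 2119 and 1987 in low MMP cells (log2 difference 0.50, SE 0.25; limma, adjusted p = 0.646), followed by Btrc, a ubiquitin ligase subunit that takes part in turnover of Plk4, at 0.10. The lowest were Usp33 and Rbm14, at -0.17 and -0.14.

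Elongation and capping genes (22) had 2 that were higher and 1 lower at the unadjusted threshold (13.6%, beside 9.96% of all genes). Their median was 0.06. Ccnf, which targets the capping protein Ccp110 for destruction, was higher by 0.96 on the log2 scale (SE 0.14), and it is also among the 5 genes nearest to Hyls1. Poc5, of the inner wall of the distal centriole, was at 565 and 545 in high and at 342 and 353 in low MMP cells (log2 difference 0.67, SE 0.09). Tube1, epsilon-tubulin, was at 181 and 190 in high and at 263 and 272 in low MMP cells (log2 difference -0.53, SE 0.10), and Wdr90 was at -0.46. The adjusted p of Ccnf, Poc5 and Tube1 was 0.472 in limma. On recovered reads DESeq2 gave adjusted p-values of 3.12e-06 for Ccnf and 0.0187 for Poc5, whereas edgeR without a block gave 0.524 for both.

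The linker and disengagement genes (9), which act in links between centrioles and in their release, had 4 that were higher and 0 lower. At that unadjusted threshold these were 44.4% of the list, beside 9.96% of all genes, and the median of the list was 0.09. Plk1 was at 4509 and 4543 in high and at 2856 and 2995 in low MMP cells (log2 difference 0.63, SE 0.08; limma, adjusted p = 0.472). Sgo1 (shugoshin), which protects cohesin, was at 0.50 on the same scale, Espl1 (separase) at 0.46 and the kinase Nek2 at 0.28 (SE 0.08, 0.12 and 0.07), with the same adjusted p. These are also genes of G2 and mitosis. The linker proteins themselves were lower in the high MMP mean, with Cep250 at -0.42 and Lrrc45 at -0.31, neither at an unadjusted p under 0.05.

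The pericentriolar material (13 genes) had 0 calls and a median of -0.07, from -0.28 in Akap9 and -0.26 in Tubgcp2 to 0.06 in both Cdk5rap2 and Mzt1. Of 16 appendage genes, Odf2 was at 0.27 (SE 0.09) and Cep89 at -0.45 (SE 0.14). Both were past the unadjusted threshold in limma (12.5% of the list, beside 9.96% of all genes), with an adjusted p of 0.472. Ccdc120 was at 0.31 and Ankrd26 at -0.38, and the median of the list was -0.04. The 10 satellite genes had 0 calls and a median of -0.006, from -0.29 in Cep131 and -0.07 in Bbs4 to 0.06 in Cep72 and 0.26 in Fopnl (listed as Cep20).

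Since Hyls1 is known for its role in cilia, 36 of 38 listed genes of intraflagellar transport and the transition zone were examined, Nphp4 and Tctn2 being absent from the table. At the unadjusted threshold 0 of the 36 passed in limma, in either direction, and 0 at the adjusted one. At the unadjusted threshold DESeq2 also called 0 and edgeR without a block called 2, both higher. Their median log2 difference was -0.04, with 15 genes higher and 21 lower. The highest were Rpgrip1l at 0.23 and Kifap3 at 0.19, and the lowest were Tctn1 at -0.44 and Mks1 at -0.55, the latter with means of 18.6 and 27.7 normalized reads.

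**Figure D5:**
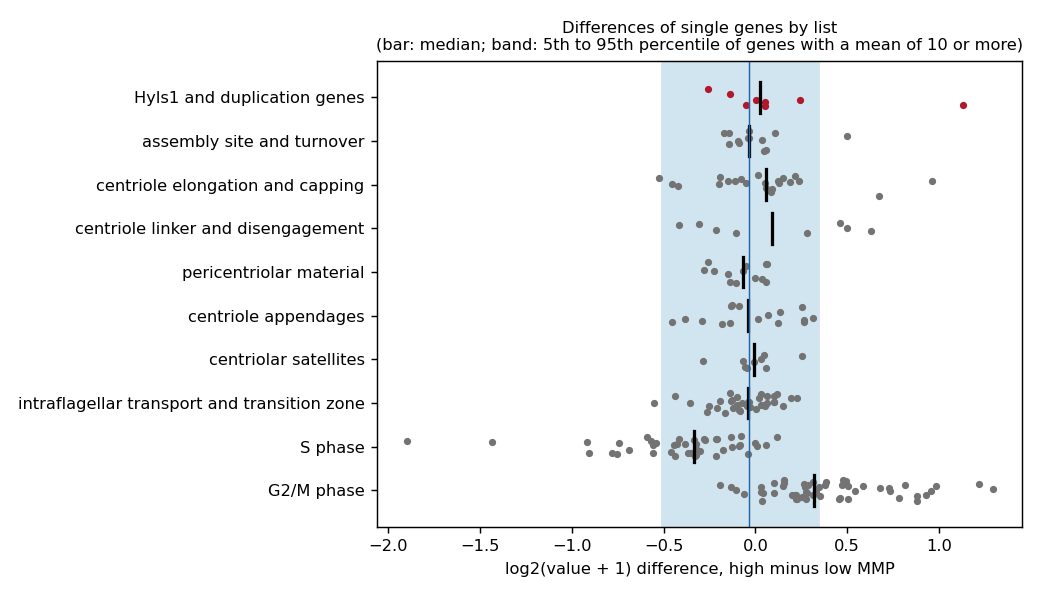
Log2 difference, high minus low MMP (horizontal axis), of single genes by list, each point a gene, with the median of each list as a black bar and the 5th to 95th percentile of the 12902 genes whose mean reached 10, -0.51 to 0.35, as a blue band. The 7 duplication genes lie within the band and Hyls1 lies at 1.13; the lists of centriole and cilium genes centre near 0, S-phase genes at -0.33 and G2/M-phase genes at 0.32.

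Genes of the cell cycle phases are given for comparison. Of 54 G2/M-phase genes, 30 were higher and 0 lower at an unadjusted p under 0.05 in limma, beside 3.95% and 6.01% of all genes, with a median of 0.32 (0.33 and 0.39 in the same-numbered pairs). Of 43 S-phase genes, 0 were higher and 23 lower at the same threshold, with a median of -0.33 (-0.25 and -0.48). At an adjusted p under 0.05, limma and edgeR without a block called 0 genes of either list. DESeq2, on the same recovered reads as edgeR, called 18 G2/M-phase genes, all higher, and 8 S-phase genes, all lower. Hyls1, at 1.13, stood above all but 2 of the 54 G2/M-phase genes, whereas Stil, the highest of the 7 duplication genes, stood below 36 of them. The lowest member, Cep152 at -0.26, stood below 14 of the 43 S-phase genes. The 7 duplication genes lay between the medians of the 2 phase lists, and Hyls1 lay in the upper range of the G2/M-phase list. A different share of cells in a phase and a different amount of RNA per cell cannot be told apart in these bulk samples, and the part of the cell cycle in the level of Hyls1 was not tested.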

How the data were processed

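RNA of 4 samples of sorted 4T1 cells was analysed, 2 of high and 2 of low MMP, grouped by the sample titles. The authors aligned reads to GRCm38 (mm10) with STAR, with HTSeq also named in the submitters' processing notes, scaled each library to its total and kept genes expressed in at least 2 samples. The deposited values are thus a normalized signal per gene that sums to 20000000 per sample. The version of the aligner, the annotation release and the use of strand in counting are not given in the sources used here. Each column was made of whole multiples of 1 step, and 100% of values came out as whole reads (tolerance 0.01), which gave depths of 22591970 to 26395015 reads. Of 20197 identifiers, 19993 matched GENCODE M21, which gave symbols, positions and lengths, and 204 did not.

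The test was limma 3.58.1 (trend) in R 4.3.3 on log2(value + 1), over all genes, two-sided, without a block, with Benjamini-Hochberg adjustment and a threshold of 0.05. This scale understates differences of low genes. edgeR 4.0.16 and DESeq2 1.42.0 on the recovered reads were alternatives, and edgeR without a block called 0 genes at an adjusted p under 0.05 and 1423 at an unadjusted one. Scripts were tested on simulated data.

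The members and lists were chosen with earlier results of these data known. Named genes were the members, their divergent partners (starts within 1 kb), the 2 highest and 2 lowest of each list among genes whose mean reached 10, and the 5 genes nearest to Hyls1 among those whose mean reached 100. Genes overlapping a member, list genes past the unadjusted threshold and the hexamer variants TTTAAA or CTTGAA were added after the values or sequences were seen. Of the genes overlapping Sass6 or Cenpj or starting beside Cep192, those with at most 1 read or absent from the table are not described. Promoter sequences are from RefSeq.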

Additional observations from a re-analysis of the deposited data

How the results depend on the processing

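The log2 difference of Hyls1 was 0.98 to 1.28 when each sample was left out and 1.12 to 1.17 under other pseudocounts (0.5 or 5), median-of-ratios rescaling (factors 0.982 to 1.019) and edgeR. The 7 duplication genes kept their signs under the same pseudocounts, rescaling and edgeR, but 6 of the 7, all except Stil, changed sign when a sample was left out (4 without high MMP sample 1, 2 without high MMP sample 2, 1 without low MMP sample 2). Deviations of same-numbered samples correlated at -0.421 over 12902 genes, so they tended to go in opposite directions. Whether same-numbered samples were sorted together is not stated. For these reasons the fits with a replicate block are given here and not beside the results. Genes at an adjusted p under 0.05 numbered 0 in limma, with and without the replicate block, 118 in DESeq2 and 106 in blocked edgeR. Crossed numbers, chosen after seeing the data, gave 733 calls in edgeR and 0 in limma. Genes at an unadjusted p under 0.05 numbered 2011 in the fit reported, 1059 among genes with a mean of 10 or more (fewer genes tested), 660 in DESeq2, 1055 and 918 with the replicate block in limma and edgeR, and 897 to 3353 leaving out each sample. The 9 other centriole genes became 19 in limma and 24 in edgeR with crossed numbers, beside 2128 and 2399 of all genes. Both counts also moved when a sample was left out. The cause was not tested. Called at an adjusted p under 0.05 among these genes were Ccnf and Poc5 in blocked edgeR, and Ccnf, Plk1, Poc5 and Sgo1 in DESeq2. The 10 named list genes and neighbours past the unadjusted threshold kept their direction under every alternative, and 5 of the other 24 changed sign under at least 1. With 2 samples a group, small differences of the members could not be told from replicate spread.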
